A study of Mus musculus with 32 samples.

Results

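The transcripts that start the breakdown of branched-chain amino acids were followed across mouse CD4+ T cells: Bcat1, Bcat2, Bckdha, Bckdhb, Dbt and Bckdk. These 6 of the 24302 listed genes were chosen by name, with their levels in these libraries in view. Bcat1 came forward through its high level after stimulation, and the other 5 were set beside it as the mitochondrial steps. Their levels and differences are therefore given as descriptions, with no test. All 6 were among the 12332 genes left by the filter on low counts.

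The cells were CD4+ T cells of C57BL/6J mice, taken from spleen with inguinal and axillary lymph nodes, and each of the 32 RNA sequencing libraries was made from poly(A) RNA. The libraries form 8 groups of 4. Cells labelled Nur77KO, here called KO-labelled, and cells labelled WT were each stimulated through CD3 and CD28 for 12 h with XCT790, stimulated with CompA, stimulated alone or left unstimulated (labelled control). XCT790 acts on the orphan receptor ERR-alpha as an inverse agonist, CompA is a compound known here only by its code, and both were used at 10 µg/ml. Nur77 is the nuclear receptor encoded by Nr4a1. The sources used here do not say how the KO allele was made or whether libraries of 1 group are from different animals, so every p-value measures only the spread between these libraries, which may be technical.

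Leucine, isoleucine and valine lose their amino group first, in a reversible transfer that makes glutamate and a branched-chain keto acid. Bcat1 encodes the cytosolic aminotransferase of this step and Bcat2 the mitochondrial one. The keto acids are then committed to breakdown in mitochondria by the branched-chain keto acid dehydrogenase complex. Bckdha and Bckdhb encode the subunits of its decarboxylase and Dbt the acyltransferase core, and the kinase encoded by Bckdk inactivates it. In activated CD4+ T cells the cytosolic aminotransferase is known to be induced and to limit the leucine left for mTOR signalling.

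Libraries held 16020288 to 23687940 gene counts, with 13060 to 15148 genes detected, and levels are given as CPM, the count of a gene relative to its library total, scaled between libraries by TMM factors. Nr4a1 was not lower in the KO-labelled groups: it averaged 332 ± 128 CPM in stimulated KO-labelled cells and 166 ± 32.7 CPM in stimulated WT cells (SD, n = 4 each). Which part of the gene the allele removes was not stated, so its level checks the labels in part at most. The libraries labelled stimulated WT stood apart. The 112 genes read here averaged at least 10 CPM in unstimulated WT cells and at most 0.02 of that level in each other stimulated group. Over them, replicates 1 to 4 of stimulated WT cells kept 0.204, 0.349, 0.287 and 0.195 of the level of the unstimulated library of the same run. Every other stimulated library kept 0.00175 to 0.0115. Those low values follow from the choice of genes, which set no limit on stimulated WT cells. A run is here a set of 4 consecutive library numbers holding 1 library of each treatment. Results that rest on stimulated WT libraries are also given with that unstimulated share subtracted where it matters. The subtraction removes that share of every gene's level in the unstimulated library of the same run, T cell transcripts included. That all genes carried over like the 112 is an assumption that was not tested, and the subtracted values rest on it. Summed levels of 16 myeloid and dendritic markers were 759 to 1771 CPM in unstimulated KO-labelled and 1881 to 2931 CPM in unstimulated WT cells, 454 to 1136 CPM in stimulated WT cells and 6.65 to 26.2 CPM in all other libraries. The 7 T cell markers summed to 3166 to 4672 CPM in every library. KO-labelled replicate 2 of each treatment carried the highest sum of 10 B cell markers of its group, 748 CPM in unstimulated cells and 192 to 248 CPM after stimulation. The same libraries carried the highest sum of 2 CD8 T cell markers of their groups, 71.3 CPM in unstimulated cells and 50.3 to 61.0 CPM after stimulation. In such bulk libraries fewer cells of a type and less RNA per cell cannot be told apart.

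Bcat1 was the member with the widest range. It lies at chr6:144993835-145076184 of GRCm38, on the minus strand, and overlaps 3 annotated non-coding genes, 1 of them on its own strand. In stimulated KO-labelled cells it reached 243, 316, 217 and 228 CPM in replicates 1 to 4, against 4.30, 4.04, 4.54 and 4.54 CPM in unstimulated KO-labelled cells. In stimulated WT cells it reached 268, 139, 235 and 247 CPM, against 1.97, 2.18, 1.56 and 1.88 CPM in unstimulated WT cells. In both genotypes every stimulated library lay above every unstimulated one, and the low end rests on as few as 28 reads per library. The fitted log2 fold change was 5.85 ± 0.21 in KO-labelled cells (SE, 57.5-fold) and 6.86 ± 0.23 in WT cells (117-fold). Across all tested genes 39.3% were called higher and 42.4% lower on stimulation in KO-labelled cells, and 34.5% higher and 38.8% lower in WT cells, a call being an adjusted p under 0.05. Replicate 2 of stimulated WT cells had both the lowest Bcat1 level of its group and the largest unstimulated share. With the share subtracted the stimulated WT libraries stood at 341, 223, 337 and 323 CPM, and the WT log2 fold change was 7.32. The unstimulated WT libraries, which had the highest myeloid marker sums, had the lowest Bcat1 of all. The part of other cells in the Bcat1 level was not tested.

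**Figure D1:**
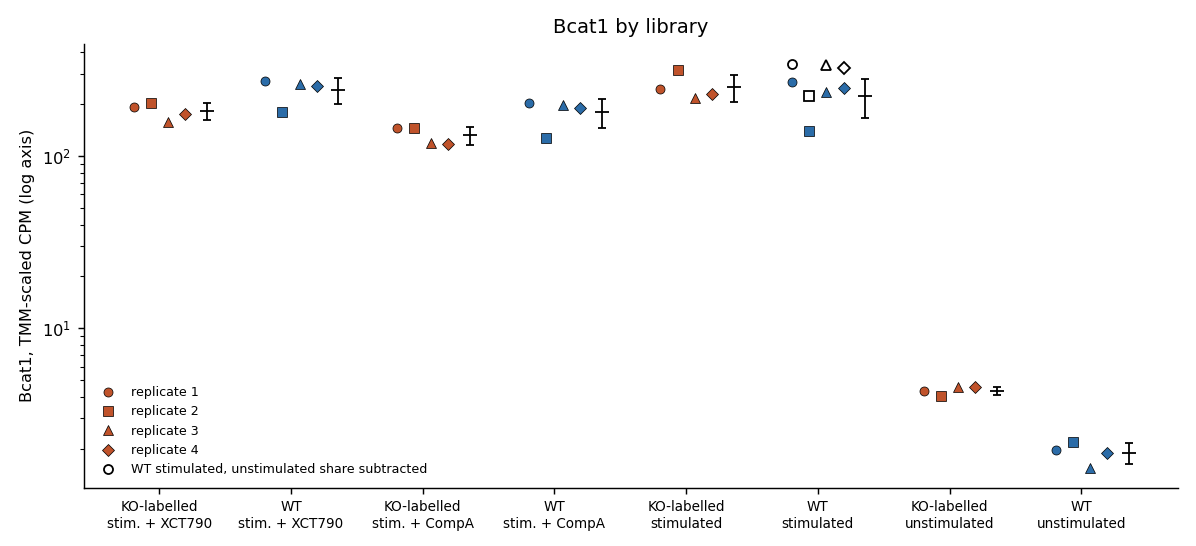
Bcat1 level in each of the 32 libraries, in TMM-scaled CPM on a log axis, with KO-labelled groups in orange and WT groups in blue; bars give the mean ± SD of 4 libraries and marker shapes the replicate. Unstimulated libraries lie between 1.56 and 4.54 CPM and stimulated ones between 117 and 316 CPM; open symbols show the stimulated WT libraries after subtraction of the unstimulated share.

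Bcat1 has an annotated start at each of a pair of positions, and so has Bcat2. The windows of 250 bases before them are shown because they hold the letters in front of the gene whose level moved most and in front of its mitochondrial counterpart. They are RefSeq sequence of GRCm38.p6, 5′ to 3′ on the gene's strand, and capitals mark a match to the AP-1 motif TGANTCA. The lines give Bcat1 at chr6:145076158-145076407 and chr6:145048813-145049062 (minus strand), then Bcat2 at chr7:45569903-45570152 and chr7:45571029-45571278 (plus strand).
Bcat1, start 1: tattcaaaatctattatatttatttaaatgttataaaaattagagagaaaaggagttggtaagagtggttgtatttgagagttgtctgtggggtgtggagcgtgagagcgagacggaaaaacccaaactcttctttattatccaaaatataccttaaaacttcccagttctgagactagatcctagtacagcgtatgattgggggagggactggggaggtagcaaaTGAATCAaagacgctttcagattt
Bcat1, start 2: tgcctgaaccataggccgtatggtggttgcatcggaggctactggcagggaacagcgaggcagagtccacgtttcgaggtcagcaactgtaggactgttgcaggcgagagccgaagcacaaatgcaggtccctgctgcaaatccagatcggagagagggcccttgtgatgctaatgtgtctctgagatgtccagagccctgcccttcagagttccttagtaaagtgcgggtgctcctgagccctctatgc
Bcat2, start 1: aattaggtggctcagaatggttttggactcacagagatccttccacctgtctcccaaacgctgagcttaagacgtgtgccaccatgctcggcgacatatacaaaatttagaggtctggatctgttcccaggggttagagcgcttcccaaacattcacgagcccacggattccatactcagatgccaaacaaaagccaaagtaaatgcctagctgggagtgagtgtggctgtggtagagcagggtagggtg
Bcat2, start 2: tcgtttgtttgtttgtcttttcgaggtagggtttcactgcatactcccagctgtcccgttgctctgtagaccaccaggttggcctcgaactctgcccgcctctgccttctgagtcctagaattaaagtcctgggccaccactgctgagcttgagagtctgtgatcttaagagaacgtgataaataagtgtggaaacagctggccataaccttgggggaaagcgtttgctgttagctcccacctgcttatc
Reads were counted per gene, so they do not say which start was used. Promoter entries matched 5 of the 6 members, with 8 windows in all. On either strand, the 8 windows were searched for TGANTCA, for the E-box CACGTG, for AAGGTCA, an element that NR4A and ERR receptors share, and for the CEBP-ATF composite TGATGNAA. The match in the first Bcat1 window, which begins 24 bases before the start, was the only one. Of all 32851 windows of this length, 6.75% hold TGANTCA, 6.02% CACGTG, 4.08% AAGGTCA and 3.45% TGATGNAA. The first Bcat1 window has 37.6% G and C with 5 CpG pairs, and the second 56.4% with 9, beside medians of 52.4% and 6 over all windows.

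Among stimulated cells, Bcat1 was lower with either inhibitor in KO-labelled cells. It stood at 194, 203, 157 and 175 CPM with XCT790 and at 146, 146, 119 and 117 CPM with CompA, against 243, 316, 217 and 228 CPM in KO-labelled cells stimulated alone. None of these 3 groups overlapped another. The log2 fold change against stimulation alone was −0.46 ± 0.16 with XCT790 and −0.93 ± 0.16 with CompA (SE). These contrasts share the libraries stimulated alone. Across all tested genes XCT790 left 6.2% called higher and 5.07% lower in KO-labelled cells, and CompA 10.2% and 9.11%.

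In WT cells Bcat1 stood at 271, 179, 261 and 253 CPM with XCT790 and at 204, 128, 198 and 189 CPM with CompA, against 268, 139, 235 and 247 CPM with stimulation alone. All 3 groups overlapped, and in each of them replicate 2 was lowest. The log2 fold change was 0.12 ± 0.16 with XCT790 and −0.31 ± 0.16 with CompA. With the unstimulated share subtracted it was −0.36 and −0.78, so the sign with XCT790 depends on that share; it also turned to −0.06 without replicate 2 of the stimulated WT cells. The value with CompA was −0.49 without that library and −0.16 without replicate 2 of the CompA-treated WT cells. Background calls in WT were 8.4% higher and 20.2% lower with XCT790, and 11.6% higher and 21.3% lower with CompA. Within runs, the CompA library lay below the stimulated one in 4 of 4 runs of each genotype. The XCT790 library lay below it in 4 of 4 KO-labelled runs and 0 of 4 WT runs, although after subtraction of the share it lay below in every WT run.

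XCT790 and CompA were given at the same mass concentration and time. Bcat1 averaged 182 ± 20.4 CPM with XCT790 and 132 ± 16.1 CPM with CompA in KO-labelled cells, without overlap, and 241 ± 41.8 and 179.8 ± 35.4 CPM in WT cells, with overlap. The log2 difference of XCT790 over CompA was 0.46 ± 0.16 in KO-labelled and 0.42 ± 0.16 in WT cells (SE), and CompA was the lower in 4 of 4 runs of each genotype. Of all tested genes 3.24% differed between the inhibitors in KO-labelled cells and 9.41% in WT cells.

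Between genotypes, Bcat1 was higher in KO-labelled cells without stimulation, and the ranges overlapped in every stimulated condition. Unstimulated KO-labelled cells averaged 4.35 ± 0.24 CPM and unstimulated WT cells 1.90 ± 0.26 CPM, with every KO-labelled library above every WT one and a log2 fold change of 1.19 ± 0.22. Here 12.5% of all tested genes were called higher and 23.6% lower in KO-labelled cells. After stimulation alone the means were 251 ± 44.4 CPM in KO-labelled and 222 ± 57.0 CPM in WT cells, and the ranges overlapped. That log2 difference was 0.18 ± 0.16, with background calls of 7.31% higher and 17.9% lower; it was −0.30 with the share subtracted and −0.0039 without replicate 2 of the stimulated WT cells. With XCT790 it was −0.40 ± 0.16 and with CompA −0.45 ± 0.16, both with overlapping ranges, while 9.51% and 7.7% of all genes were called in either direction. Fitted as differences between genotypes, KO-labelled minus WT, the change in Bcat1 was −1.02 ± 0.28 for stimulation, −0.58 ± 0.23 for XCT790 and −0.62 ± 0.23 for CompA. With the unstimulated share of the stimulated WT libraries subtracted, these differences were −1.5 ± 0.25 for stimulation, −0.10 ± 0.21 for XCT790 and −0.14 ± 0.21 for CompA. The same differences were called for 33.7%, 24.7% and 21.6% of all tested genes.

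By group mean, Bcat1 ran from 251 CPM in stimulated KO-labelled cells through 241 CPM with XCT790 in WT, 222 CPM in stimulated WT, 182 CPM with XCT790 in KO-labelled, 179.8 CPM with CompA in WT and 132 CPM with CompA in KO-labelled cells to 4.35 and 1.90 CPM in unstimulated KO-labelled and WT cells. With the share subtracted, stimulated WT cells averaged 306 CPM, which would put them first. Each neighbouring pair among the stimulated groups overlapped, and the steps down to the unstimulated groups did not. The KO-labelled libraries carry the higher library numbers, so genotype cannot be told apart from library order.

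Bcat2, at chr7:45570153-45589711 (plus strand, with 1 antisense gene overlapping), did not share this range. Stimulated KO-labelled cells held 69.4, 46.4, 50.8 and 54.3 CPM of it, against 37.1, 38.4, 34.9 and 40.4 CPM in unstimulated KO-labelled cells. Stimulated WT cells held 54.0, 53.5, 55.0 and 42.3 CPM, against 61.8, 49.1, 49.2 and 47.7 CPM in unstimulated WT cells. The groups stood apart in KO-labelled cells, with a log2 fold change of 0.55 ± 0.12, and overlapped in WT cells, with −0.02 ± 0.12. Unstimulated KO-labelled cells were the lowest group and lay below unstimulated WT cells in every library, by a log2 difference of −0.46 ± 0.12. With the inhibitors Bcat2 averaged 62.6 ± 6.37 CPM with XCT790 and 58.6 ± 9.98 CPM with CompA in KO-labelled cells, against 55.2 ± 9.99 CPM with stimulation alone, all overlapping. In WT cells it averaged 59.7 ± 3.8 CPM with XCT790 and 58.0 ± 1.5 CPM with CompA, against 51.2 ± 5.98 CPM with stimulation alone, and only the CompA group stood apart.

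CPM per kilobase of exon lets the cytosolic and the mitochondrial aminotransferase be set side by side. With lengths of 9322 and 3900 bases of merged exons, Bcat1 over Bcat2 averaged 1.96 ± 0.61 in stimulated KO-labelled cells, against 0.0485 ± 0.0044 in unstimulated KO-labelled cells. In WT cells the ratio averaged 1.85 ± 0.57 with stimulation and 0.0154 ± 0.0026 without (SD, n = 4 each). With XCT790 it was 1.23 ± 0.21 in KO-labelled and 1.71 ± 0.37 in WT cells, and with CompA 0.969 ± 0.25 and 1.30 ± 0.27. Unstimulated cells thus held mostly the mitochondrial transcript on this scale. With merged exons, Bcat1 was the higher in every library stimulated alone, with ratios of 1.47 to 2.85 in KO-labelled and 1.09 to 2.44 in WT cells. Whether Bcat1 exceeds Bcat2 depends on the length used. With the longest transcript of each gene, 7833 and 2081 bases, the ratio averaged 1.25 in stimulated KO-labelled cells and 1.17 in stimulated WT cells. Single libraries then ran from 0.931 to 1.81 in stimulated KO-labelled and from 0.691 to 1.55 in stimulated WT cells. On that length the means were 0.780 in KO-labelled and 1.08 in WT cells with XCT790, and 0.615 and 0.826 with CompA.

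**Figure D2:**
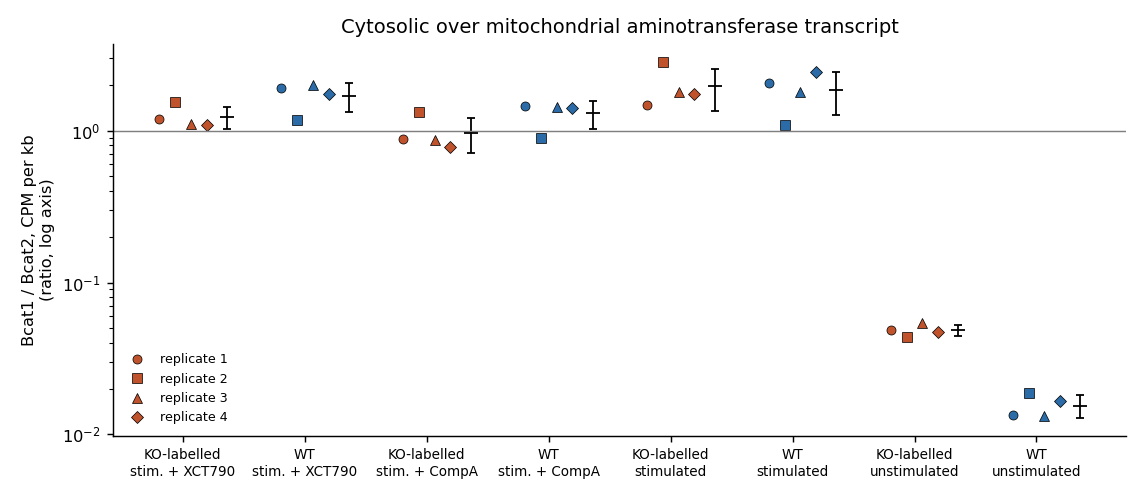
Ratio of Bcat1 to Bcat2 in each library, both in CPM per kilobase of merged exons, on a log axis with a line at a ratio of 1; KO-labelled groups are orange, WT groups blue, and bars give the mean ± SD of 4 libraries. The unstimulated libraries lie between 0.0132 and 0.0544 and the stimulated ones between 0.777 and 2.85.

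The decarboxylase subunits differed in sign on stimulation. Bckdha, at chr7:25629946-25658981 (minus strand, overlapped by B3gnt8 on the other strand), held 22.5, 22.3, 17.5 and 17.6 CPM in stimulated KO-labelled cells, against 32.6, 41.3, 36.8 and 41.0 CPM in unstimulated KO-labelled cells. It held 24.2, 29.8, 32.1 and 21.8 CPM in stimulated WT cells, against 50.7, 42.5, 47.3 and 41.8 CPM in unstimulated WT cells. In each genotype it was lower in every library stimulated alone than in every unstimulated one. The log2 fold changes were −0.93 ± 0.15 in KO-labelled and −0.76 ± 0.15 in WT cells, and −1.17 in WT cells with the share subtracted. Myeloid marker sums fell on stimulation as well, and the part of such other cells in this fall was not tested. Both inhibitors left Bckdha above stimulation alone in KO-labelled cells without overlap, at 34.5 ± 6.74 CPM with XCT790 and 33.8 ± 6.68 CPM with CompA, against 19.96 ± 2.8 CPM. In WT cells it averaged 32.4 ± 1.49 and 35.2 ± 6.73 CPM, against 27.0 ± 4.77 CPM, with overlap. The log2 fold changes were 0.79 ± 0.15 and 0.76 ± 0.15 in KO-labelled cells, and 0.27 ± 0.15 and 0.38 ± 0.15 in WT cells, where they were 0.66 and 0.77 with the share subtracted.

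Bckdhb, at chr9:83925145-84124240 (plus strand), was the least abundant of the 5 mitochondrial members, with 76 reads in the library that held the fewest. It held 7.03, 6.61, 6.25 and 6.45 CPM in stimulated KO-labelled cells, against 4.38, 4.61, 3.30 and 3.32 CPM in unstimulated KO-labelled cells, without overlap. In WT cells it held 7.08, 6.71, 6.79 and 5.46 CPM, against 7.77, 4.37, 5.00 and 5.09 CPM without stimulation, and the groups overlapped through replicate 1 of the unstimulated cells. The log2 fold change was 0.75 ± 0.16 in KO-labelled and 0.23 ± 0.16 in WT cells, and 0.52 in WT cells without that replicate. It was higher with the inhibitors than with stimulation alone, at 8.21 ± 1.07 CPM with XCT790 and 8.52 ± 1.16 CPM with CompA in KO-labelled cells, against 6.58 ± 0.33 CPM, and at 9.2 ± 1.13 and 9.88 ± 1.22 CPM in WT cells, against 6.51 ± 0.72 CPM. Of these only XCT790 in KO-labelled cells overlapped stimulation alone.

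Dbt, at chr3:116513070-116549981 (plus strand), varied least between conditions. It averaged 27.5 ± 3.76 CPM in stimulated KO-labelled cells and 20.5 ± 2.09 CPM in unstimulated KO-labelled cells, and 31.7 ± 3.16 and 23.2 ± 1.01 CPM in WT cells, apart in both genotypes. The log2 fold changes were 0.43 ± 0.10 and 0.45 ± 0.10. With either inhibitor Dbt overlapped stimulation alone in both genotypes, with log2 fold changes from −0.12 to −0.07. It averaged 26.1 ± 2.53 CPM in KO-labelled and 30.1 ± 0.72 CPM in WT cells under CompA, where the genotypes stood apart.

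Bckdk, at chr7:127904082-127910221 (plus strand, no overlapping gene), encodes the kinase that switches the complex off. It held 78.3, 71.5, 67.2 and 78.3 CPM in stimulated KO-labelled cells, against 40.6, 39.4, 40.9 and 40.6 CPM in unstimulated KO-labelled cells. In WT cells it held 71.1, 61.8, 70.8 and 58.7 CPM, against 72.3, 41.1, 54.8 and 47.0 CPM without stimulation. The KO-labelled groups stood apart and the WT groups overlapped, with log2 fold changes of 0.87 ± 0.12 and 0.29 ± 0.12; the WT value was 0.55 without replicate 1 of the unstimulated cells. That replicate was the highest of its group for Bcat2, Bckdha, Bckdhb, Dbt and Bckdk alike. Bckdk was highest with CompA, at 83.5 ± 10.1 CPM in KO-labelled and 87.1 ± 3.79 CPM in WT cells, against 73.8 ± 5.45 and 65.6 ± 6.30 CPM with stimulation alone, and only the WT groups stood apart. With XCT790 it averaged 72.9 ± 9.19 CPM in KO-labelled and 75.4 ± 3.08 CPM in WT cells. CompA exceeded XCT790 in 4 of 4 runs of each genotype.

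The size of the changes on stimulation depended on how libraries were scaled. With library totals the log2 fold changes in KO-labelled cells were 0.21 for Bcat2, 0.42 for Bckdhb, 0.10 for Dbt, 0.54 for Bckdk and −1.26 for Bckdha, and with upper-quartile factors Bcat2 stood at 0.29, Bckdhb at 0.50 and Dbt at 0.17. In WT cells upper-quartile factors gave 0.23 for Dbt, 0.0099 for Bckdhb, 0.064 for Bckdk and −0.24 for Bcat2. The signs named for KO-labelled cells held under these scalings.

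**Figure D3:**
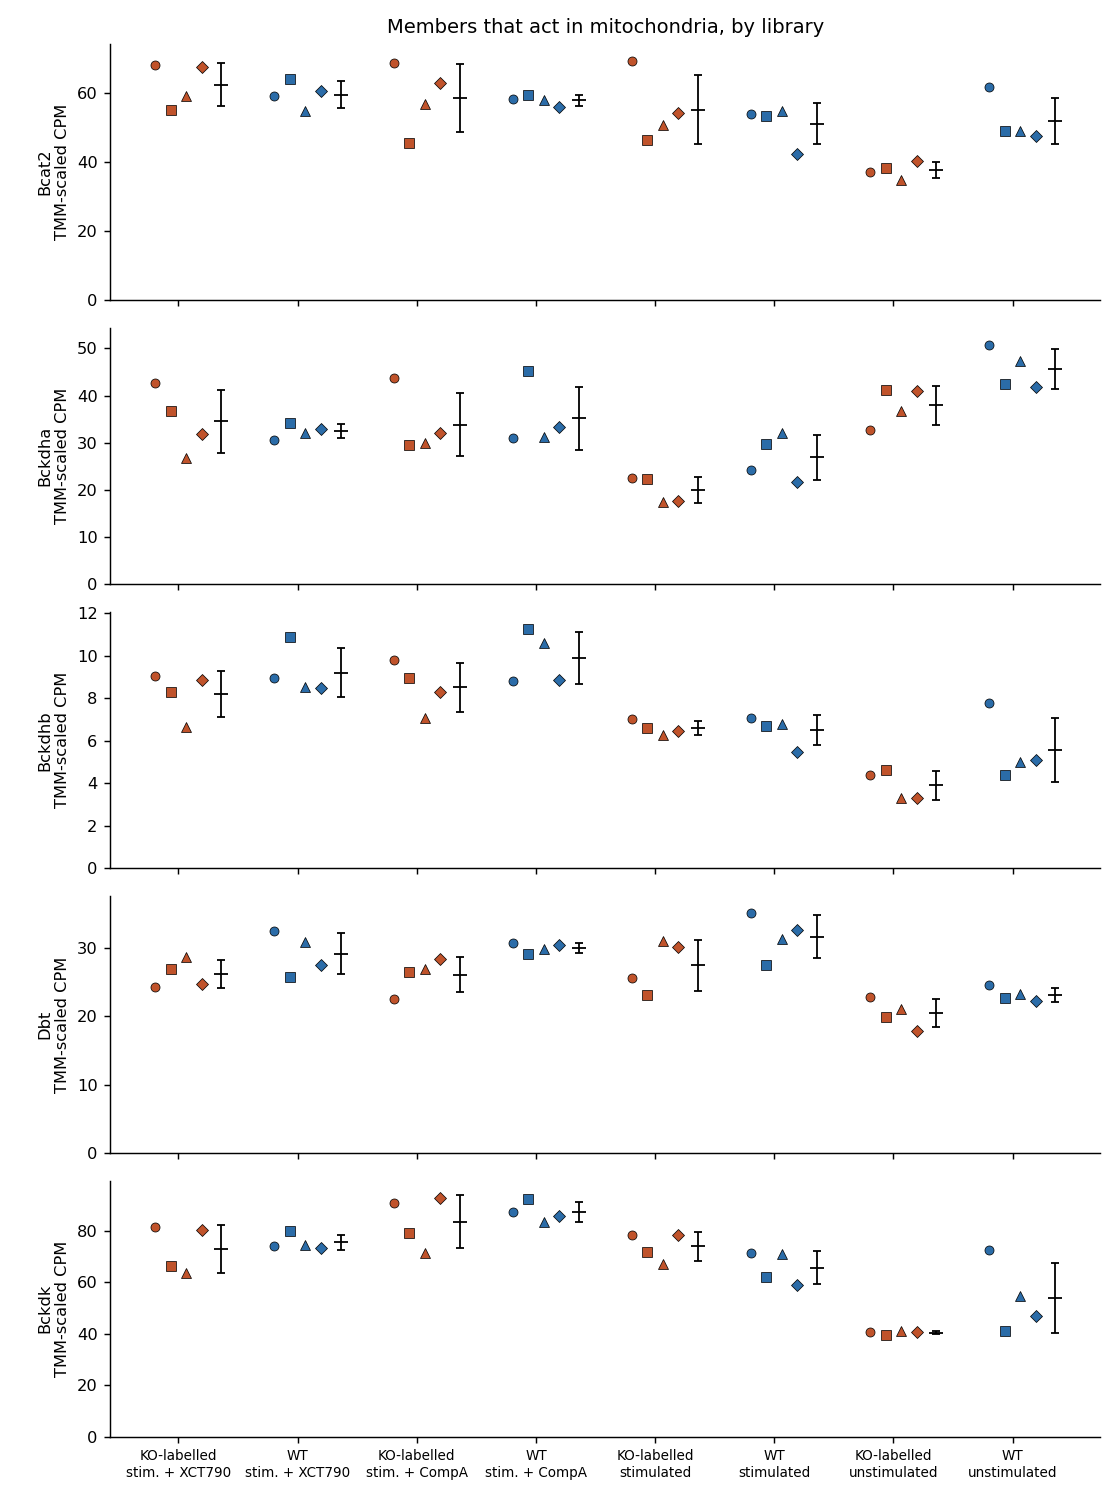
Levels of the 5 members that act in mitochondria in each library, in TMM-scaled CPM on linear axes from 0; KO-labelled groups are orange, WT groups blue, marker shapes give replicates 1 to 4 (circle, square, triangle, diamond) and bars the mean ± SD of 4 libraries. Bckdha is lowest in cells stimulated alone, while Bckdhb and Bckdk are lowest in unstimulated KO-labelled cells.

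On the per-kilobase scale the parts of the complex differed among themselves. In unstimulated KO-labelled and WT cells Bckdha averaged 19.98 and 24, Dbt 6.12 and 6.93, and Bckdhb 2.16 and 3.08 CPM per kilobase. After stimulation alone Bckdha averaged 10.5 in KO-labelled and 14.2 in WT cells, Dbt 8.22 and 9.46, and Bckdhb 3.65 and 3.61 CPM per kilobase. The order thus stayed, and Bckdha came closer to Dbt and Bckdhb. The difference between Dbt and Bckdhb did not narrow in either genotype. Bckdk averaged 19.98 and 17.8 CPM per kilobase after stimulation, and 10.9 and 14.6 without.

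**Figure D4:**
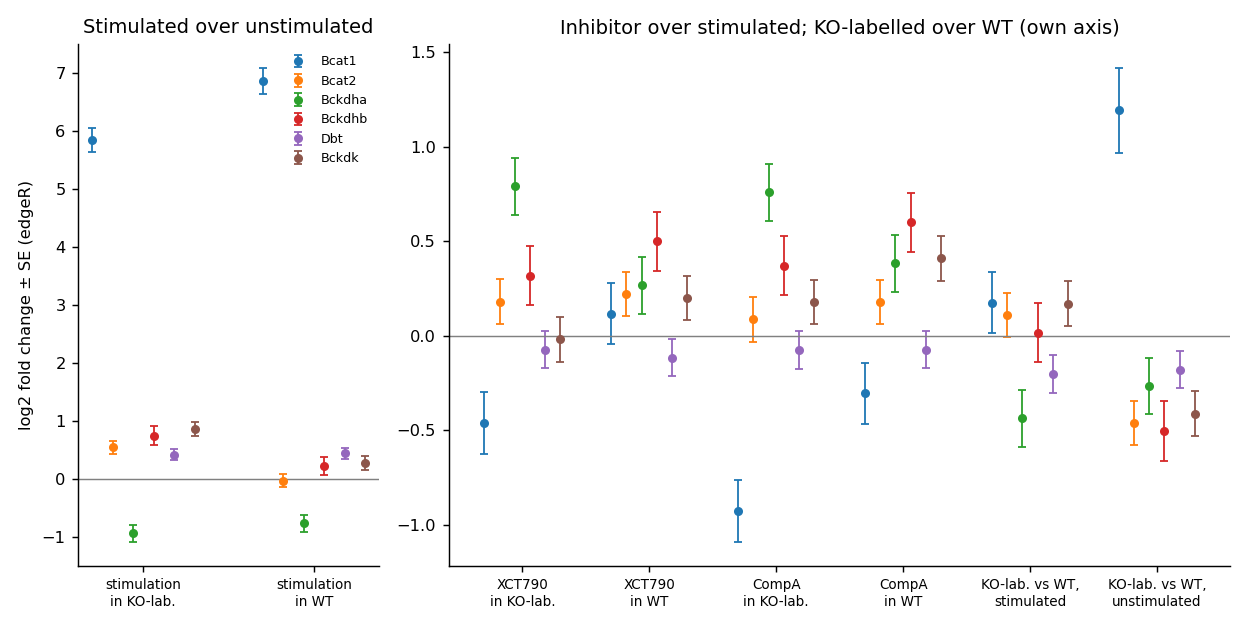
Fitted log2 fold changes ± SE of the 6 members, for stimulated over unstimulated cells (left) and, on its own axis, for inhibitor over stimulation alone and KO-labelled over WT cells (right). Bcat1 is the only member past 1 on stimulation, and with CompA in KO-labelled cells it lies at −0.93 while Bckdha lies at 0.76.

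The partners of the complex are not among the 6 genes and were tested in the fit over all genes, although their list, too, was drawn up with earlier results of these data known. Dld encodes the dehydrogenase subunit that this complex shares with other keto acid dehydrogenases, Ppm1k the phosphatase that reactivates the complex, and Slc25a44 a mitochondrial carrier of branched-chain amino acids. Dld rose on stimulation to 223 ± 8.81 CPM in KO-labelled cells, against 75.6 ± 5.66 CPM, and to 207 ± 14.3 CPM in WT cells, against 94.3 ± 9.49 CPM (adjusted p = 5.9e-17 and 1.16e-13, all 4 stimulated libraries higher in each). Ppm1k fell to 7.99 ± 0.71 CPM, against 20.2 ± 2.5 CPM, and to 11.3 ± 3.1 CPM, against 20.8 ± 3.9 CPM (adjusted p = 2.14e-09 and 5.02e-06). Slc25a44 did not pass the test in either genotype. Bckdk and the phosphatase Ppm1k thus differed in sign, with log2 fold changes of 0.87 and −1.34 in KO-labelled and 0.29 and −0.88 in WT cells.

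Further down, 22 genes of the later steps and partners were read as lists, with the calls over all genes given above as background. On stimulation 8 of the 22 rose and 4 fell in KO-labelled cells, with a median log2 change of 0.18 beside −0.07 over all tested genes. In WT cells 5 rose and 8 fell, with a median of −0.17 beside −0.11. Of the 5 leucine genes, Mccc1, a subunit of methylcrotonyl-CoA carboxylase, rose by log2 0.90 ± 0.09 in KO-labelled and 0.82 ± 0.09 in WT cells (adjusted p = 7.31e-10 and 1.16e-08). Ivd, isovaleryl-CoA dehydrogenase, fell in both, with log2 changes of −0.52 ± 0.09 and −0.58 ± 0.09 (adjusted p = 6.99e-06 and 1.97e-06), and the other 3 did not pass.

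Of the 8 isoleucine and valine genes, 4 rose and 2 fell in KO-labelled cells, and 2 rose and 3 fell in WT cells. Aldh6a1, the methylmalonate semialdehyde dehydrogenase of valine breakdown, fell most, to 3.66 ± 0.64 CPM in KO-labelled cells, against 14.0 ± 0.98 CPM, and to 8.49 ± 2.26 CPM in WT cells, against 18.8 ± 1.36 CPM (adjusted p = 1.55e-12 and 4.87e-08). Acadsb, which oxidises the isoleucine-derived acyl-CoA, also fell in both, with log2 changes of −0.62 ± 0.08 and −0.69 ± 0.08. Hibadh, a valine enzyme, rose in both, by 0.83 ± 0.09 and 0.42 ± 0.09, as did Hibch, the preceding step, by 0.74 ± 0.12 and 0.30 ± 0.12; the WT call of Hibch was lost in 8 of 18 alternatives, with an adjusted p of up to 0.535. Acat1, which ends isoleucine breakdown, fell with a log2 change of −0.51 ± 0.09 in WT cells (adjusted p = 7.43e-06).

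Of the 6 propionyl-CoA genes, 2 rose in KO-labelled cells, and 1 rose and 3 fell in WT cells. Mmab, which prepares the cobalamin cofactor of methylmalonyl-CoA mutase, rose in both, by log2 0.81 ± 0.12 and 0.45 ± 0.12 (adjusted p = 4.12e-07 and 0.00131), and the WT call was lost with upper-quartile factors (adjusted p = 0.0769). Pcca, a propionyl-CoA carboxylase subunit, passed in KO-labelled cells at 0.25 ± 0.10 (adjusted p = 0.0212), a call lost in 8 of 18 alternatives, and turned to −0.00442 with upper-quartile factors and −0.0789 with library totals. The partner subunit Pccb fell in WT cells, with a log2 change of −0.47 ± 0.11. Mut, the mutase itself, and Mcee, the epimerase before it, fell too, with log2 changes of −0.35 ± 0.10 and −0.41 ± 0.18; the calls of Mut and Mcee were lost without replicate 1 of the unstimulated WT cells (adjusted p = 0.0595 and 0.554). That of Mcee was lost in 8 of the 18 alternatives in all. The difference between genotypes in the effect of stimulation was itself called for 8 of the 22 genes, beside 33.7% of all tested genes. The change was higher in KO-labelled cells for 7 and lower for 1, beside 2126 higher and 2035 lower of 12332 tested genes.

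**Figure D5:**
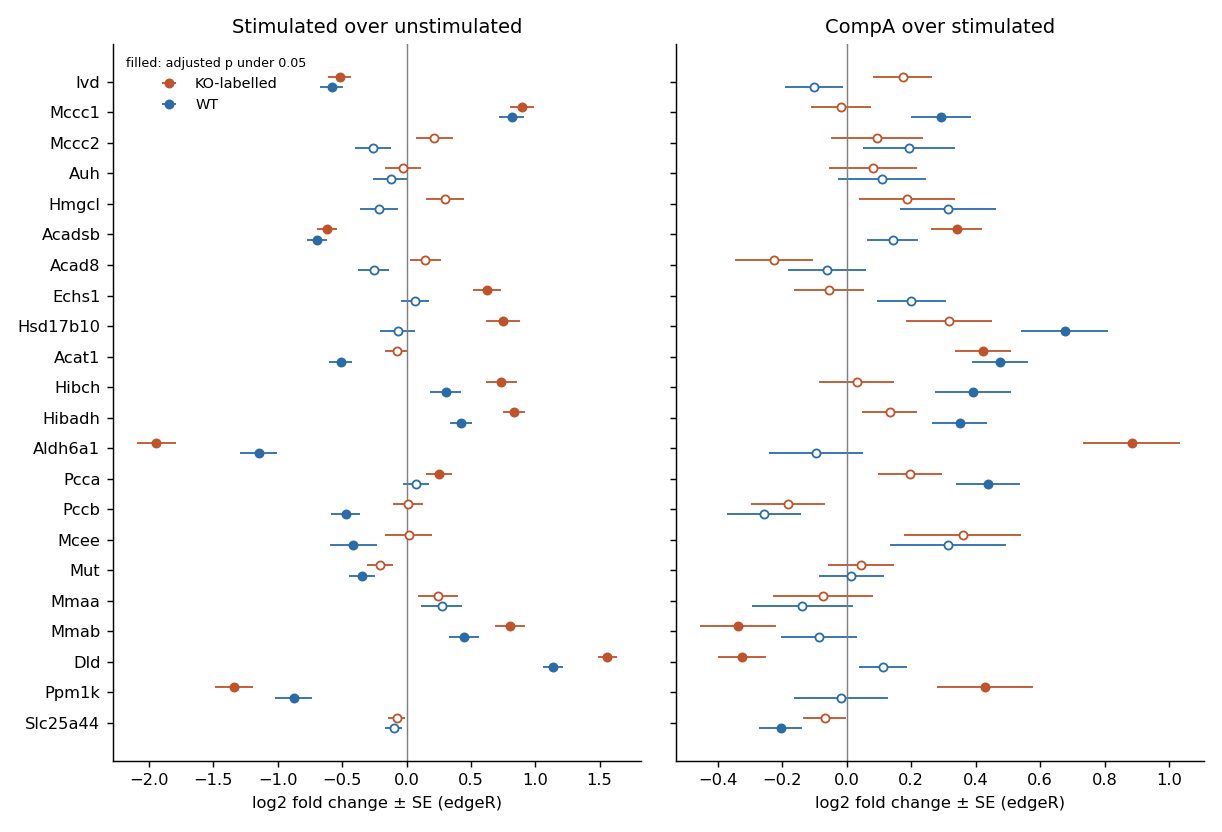
Fitted log2 fold changes ± SE of the 22 genes of the later steps and complex partners, for stimulated over unstimulated cells (left) and for CompA over stimulation alone (right), in KO-labelled (orange) and WT cells (blue). Filled points have an adjusted p under 0.05: 12 in KO-labelled and 13 in WT cells on the left.

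With XCT790, 2 of the 22 genes rose and 1 fell in KO-labelled cells, where the background was 6.2% higher and 5.07% lower. In WT cells 2 rose and 2 fell, beside 8.4% higher and 20.2% lower. In KO-labelled cells Acadsb rose by log2 0.49 ± 0.08 (adjusted p = 0.000291) and Aldh6a1 by 0.64 ± 0.15 (adjusted p = 0.00738), and Dld fell with a log2 change of −0.29 ± 0.07 (adjusted p = 0.0108). When only the groups compared were fitted, Aldh6a1 and Dld had adjusted p of 0.0929 and 0.0567, and Acadsb kept its call. In WT cells Hsd17b10, an isoleucine-pathway dehydrogenase, rose by 0.49 ± 0.13 (adjusted p = 0.00631) and Hibadh by 0.26 ± 0.09 (adjusted p = 0.0209). Slc25a44 fell with a log2 change of −0.20 ± 0.07 (adjusted p = 0.0233). With the unstimulated share subtracted the adjusted p of Hibadh was 0.606 and that of Slc25a44 0.0622, and Aldh6a1, lower in the WT fit as deposited, turned to 0.43 ± 0.16.

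With CompA, 4 of the 22 genes rose and 2 fell in KO-labelled cells, where the background was 10.2% higher and 9.11% lower. In WT cells 6 rose and 1 fell, beside 11.6% higher and 21.3% lower. Acat1 rose in both, to 104 ± 6.7 CPM in KO-labelled cells, against 78.0 ± 4.7 CPM with stimulation alone, and to 114 ± 4.3 CPM in WT cells, against 81.7 ± 7.1 CPM (adjusted p = 0.00111 and 8.44e-05, higher in all 4 libraries of each). It was also the 1 gene of the 22 that differed between the inhibitors in both genotypes, lower with XCT790 than with CompA by log2 −0.34 ± 0.09 in KO-labelled and −0.56 ± 0.09 in WT cells (adjusted p = 0.0221 and 7.87e-05). The KO-labelled difference was lost in 5 of 18 alternatives, at an adjusted p of up to 0.0846. Aldh6a1 rose by log2 0.88 ± 0.15 in KO-labelled cells (adjusted p = 0.000202), and Hsd17b10 by 0.68 ± 0.13 in WT cells (adjusted p = 0.000242). Mccc1 rose by 0.29 ± 0.09 and Pcca by 0.44 ± 0.10 in WT cells (adjusted p = 0.0149 and 0.00104), the first lost in 6 of 18 alternatives (adjusted p of up to 0.766, with the share subtracted). In KO-labelled cells Ppm1k rose by 0.43 ± 0.15 and Dld fell with a log2 change of −0.32 ± 0.07 (adjusted p = 0.0401 and 0.0027), the Ppm1k call being lost in 13 of 18 alternatives.

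Between genotypes, 15 of the 22 genes were lower in unstimulated KO-labelled than in unstimulated WT cells, where 23.6% of all tested genes were lower, with a median log2 difference of −0.32 beside −0.08 over all genes. None was called higher by edgeR, at an unadjusted p under 0.05, by DESeq2 or by limma-voom. Acat1 averaged 82.3 ± 2.9 CPM in KO-labelled and 117 ± 15 CPM in WT cells (adjusted p = 0.000139). Pccb and Ivd had log2 differences of −0.63 ± 0.11 and −0.44 ± 0.09 (adjusted p = 0.000235 and 0.000754). Of the mitochondrial members, Bcat2, Bckdha and Bckdk lay lower in every KO-labelled library, with log2 differences of −0.46, −0.26 and −0.41, while Bckdhb and Dbt, at −0.50 and −0.18, overlapped. With library totals these values were −0.24, −0.046 and −0.18 for the first 3, −0.28 for Bckdhb and 0.035 for Dbt, and without replicate 1 of the unstimulated WT cells Bckdhb and Bckdk stood at −0.25 and −0.18. The count of 15 later genes was 6 without replicate 1 of the unstimulated WT cells and 6 when libraries were scaled by their totals. Myeloid marker sums were also lower in unstimulated KO-labelled cells, 759 to 1771 CPM against 1881 to 2931 CPM, and their part in the difference was not tested. After stimulation alone 3 of the 22 were lower in KO-labelled cells (Aldh6a1, Ivd and Ppm1k), and with the unstimulated share of the WT libraries subtracted edgeR called 0 (3 at an unadjusted p under 0.05).

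Transporter genes were read in the same fit. Slc7a5, the main leucine transporter of activated T cells, rose to 454 ± 46 CPM in stimulated KO-labelled cells, against 53.5 ± 3.4 CPM, and to 394 ± 70 CPM in stimulated WT cells, against 90.2 ± 32 CPM (adjusted p = 2.11e-15 and 6.95e-12). Its heavy chain Slc3a2 rose by log2 1.54 ± 0.13 and 1.09 ± 0.13. Of the 5 transporter genes, 2 rose and 3 fell in KO-labelled cells, where 39.3% of all tested genes were called higher and 42.4% lower. In WT cells 2 rose and 2 fell, beside 34.5% higher and 38.8% lower. Slc43a2 fell to 12.2 ± 1.2 CPM, against 84.7 ± 11 CPM, in KO-labelled cells and to 37.4 ± 13 CPM, against 109 ± 26 CPM, in WT cells, and Slc7a8 fell with log2 changes of −3.84 ± 0.36 and −1.84 ± 0.30. With the share subtracted, the WT log2 changes were −3.66 for Slc43a2 and −6.32 for Slc7a8. Mean myeloid and dendritic marker sums fell too, from 1200 to 14.7 CPM in KO-labelled and from 2410 to 682 CPM in WT cells. Whether the falls of Slc43a2 and Slc7a8 came from T cells or from such other cells was not tested. Nor was it tested for the other genes named here as falling on stimulation, such as Ppm1k, Ivd, Acadsb and Aldh6a1.

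With CompA Slc3a2 rose further, by log2 0.37 ± 0.13 in KO-labelled and 0.79 ± 0.13 in WT cells (adjusted p = 0.0413 and 2.12e-05), the first lost in 8 of 18 alternatives. In WT cells Slc7a8 and Slc43a2 fell with CompA, with log2 changes of −4.08 ± 0.43 and −1.52 ± 0.19 that turned to 0.38 and 0.57 with the share subtracted (adjusted p = 0.778 and 0.128). Their falls with XCT790 in WT cells, log2 −3.36 ± 0.39 and −2.11 ± 0.20, were lost with it, at 1.10 and −0.0137 (adjusted p = 0.398 and 0.988). Of the 3 sestrin genes, listed here for leucine sensing, Sesn1 fell on stimulation. Its log2 changes were −1.61 ± 0.14 in KO-labelled and −1.08 ± 0.14 in WT cells, the second −1.91 with the share subtracted. Sesn3 fell too, with −0.38 ± 0.11 and −0.31 ± 0.11; its WT call was lost in 3 of 18 alternatives, at an adjusted p of up to 0.104 (without replicate 1 of the unstimulated WT cells). Sesn2 rose by 1.33 ± 0.36 in KO-labelled cells, a call lost without replicate 2 of the stimulated KO-labelled cells (adjusted p = 0.0732), and with CompA in WT cells by 1.69 ± 0.36 (adjusted p = 0.000528).

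The competing uses of the amino acids were read from the tRNA synthetases and the other aminotransferases. Lars, Iars and Vars, the cytosolic synthetases for leucine, isoleucine and valine, all rose on stimulation, by log2 1.47, 2.43 and 0.97 in KO-labelled and 1.37, 2.27 and 1.08 in WT cells (largest adjusted p = 2.76e-09). Of their mitochondrial counterparts Lars2, Iars2 and Vars2, 2 rose in KO-labelled cells, and 1 rose and 1 fell in WT cells. The background for the genes of this paragraph was 39.3% higher and 42.4% lower in KO-labelled cells. In WT cells it was 34.5% higher and 38.8% lower. Iars2 rose by 0.55 ± 0.07 and 0.41 ± 0.07. The KO-labelled rise of Vars2 turned to −0.0111 with upper-quartile factors and −0.0829 with library totals. The WT fall of Lars2, with a log2 change of −0.77 ± 0.32, was lost without replicate 1 of the unstimulated or replicate 4 of the stimulated WT cells (adjusted p of up to 0.252). Among 3 other cytosolic aminotransferases Got1, for aspartate, rose by log2 2.75 ± 0.11 and 2.41 ± 0.11 and Psat1, for phosphoserine, by 2.97 ± 0.16 and 2.6 ± 0.16. Gpt, for alanine, fell with log2 changes of −1.41 ± 0.20 and −1.54 ± 0.19, the second −3.23 with the share subtracted. Of the mitochondrial ones, Got2 rose by 1.30 ± 0.08 and 1.12 ± 0.08, and Oat and Gpt2 passed in KO-labelled cells, at 0.62 ± 0.08 and 0.90 ± 0.30; the Gpt2 call was lost with library totals and by limma-voom (adjusted p of up to 0.0865).

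The mitochondrial alanine aminotransferase gene Gpt2 rose with both inhibitors. In KO-labelled cells it rose to 10.4 ± 2.9 CPM with XCT790 and 14.6 ± 1.1 CPM with CompA, against 2.45 ± 0.49 CPM with stimulation alone (adjusted p = 2.28e-05 and 5.48e-07). In WT cells it rose to 9.18 ± 2.8 and 30.2 ± 9.6 CPM, against 2.37 ± 0.58 CPM (adjusted p = 2.11e-06 and 3.86e-11). Psat1 rose with CompA in WT cells by log2 1.00 ± 0.15 (adjusted p = 4.74e-06), and Got2 by 0.53 ± 0.08 (adjusted p = 3.9e-06).

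The genes whose log2 levels followed Bcat1 most closely over the 32 libraries were Ncs1, Lrrc59, Sh2d2a, Mettl16, Ecd and Nsun2, with Pearson r from 0.990 to 0.995 among 12331 genes ranked. These libraries share their treatment, so the values are descriptions and mostly follow the step between unstimulated and stimulated cells. Ncs1, a neuronal calcium sensor gene, stood at 58.5 ± 12.0 CPM in stimulated KO-labelled and 50.2 ± 12.7 CPM in stimulated WT cells, against 1.81 ± 0.09 and 0.779 ± 0.22 CPM without stimulation, and so shared the higher unstimulated level of KO-labelled cells. Over the 24 stimulated libraries alone other genes came first: Polr3g, Hnrnpll and Cox10, with r of 0.952, 0.942 and 0.926, and Ncs1 ranked 411. Of the other members Bckdk, Dbt, Bckdhb and Bcat2 had r of 0.772, 0.722, 0.701 and 0.548 with Bcat1 over 32 libraries, and Bckdha −0.608. Over the stimulated libraries alone these were −0.336, 0.288, −0.318, −0.276 and −0.45.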

How the data were processed

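Poly(A) RNA of 32 libraries was sequenced, and the authors deposited 1 file of HTSeq read counts per library, whole numbers that were not normalized. Per the submitters' processing notes, Trimmomatic 0.36, HISAT2 2.1.0, SAMtools, HTSeq 0.9.1, R 3.4.4, DESeq2 1.18.1 and the mm10 build were used; settings, annotation version and strand option are not given in the sources used here, so overlapping and antisense genes may share reads. The 5 summary lines beside the 24302 genes of a file stayed out of library sizes; reads outside genes were 3.03 to 7.94% and ambiguous reads 0.681 to 1.22% of all listed lines.

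Groups follow each library's genotype and agent labels. One quasi-likelihood fit of edgeR 4.0.16 (limma 3.58.1, R 4.3.3) over 8 group means, with TMM factors and the default filter, gave 15 contrasts over 12332 genes with Benjamini-Hochberg adjustment; it was tested on simulated data. Levels are TMM-scaled CPM. Lengths and coordinates come from GENCODE annotation of GRCm38. The members and lists were chosen with earlier results of these data known, as were subtraction of the unstimulated share and omission of KO replicate 2. Genes are named by rule: the members, up to 4 list genes with the smallest adjusted p on stimulation and up to 2 elsewhere, every gene of a list of 3, and the 6 genes most like Bcat1. Chi-square values per degree of freedom between replicates were at least 2.92, so no pair matched within sampling noise.

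Libraries of the same run deviated together: gene-wise correlations were 0.125 to 0.779 in KO-labelled cells, 0.417 to 0.629 between unstimulated and stimulated and 0.234 to 0.635 between XCT790 and CompA WT libraries, but not all over 0.1 for the other WT pairs. Alternatives were the run as a replicate block, DESeq2 1.42.0, limma-voom, other scalings, no filter, only the groups compared, and each library left out. The precision of a count is limited by depth, 16020288 to 23687940 counts a library.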

Additional observations from a re-analysis of the deposited data

Results flagged for a closer look

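In 4 of 48 sets of 4 values, each of 1 member in 1 group, 1 library stood far from the other 3. Its gap to the nearest library was 0.831 to 0.895 of the range of the set. The sets share libraries and hold members chosen with these levels in view, so this is a description with no test. Bcat2 was 61.8 CPM in unstimulated WT replicate 1 and 42.3 CPM in stimulated WT replicate 4. Bckdha was 45.2 CPM in CompA-treated WT replicate 2 and 43.7 CPM in CompA-treated KO-labelled replicate 1.

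The effect of stimulation differed between genotypes, as KO-labelled minus WT log2 change with an adjusted p under 0.05, for Echs1 by 0.56, Hsd17b10 by 0.82, Acat1 by 0.43, Hibch by 0.43, Hibadh by 0.41, Pccb by 0.48, Dld by 0.42 and Aldh6a1 by −0.79. The call of Hibch was lost in 16 of 26 alternatives (adjusted p of up to 0.282), that of Pccb in 6 (up to 0.169), those of Hibadh in 4 and Dld in 3 (up to 0.191 and 0.441), that of Acat1 in 2 (up to 0.113) and that of Echs1 in 1 (0.0531). The effect of XCT790 differed for Acadsb by 0.40, Aldh6a1 by 1.06, Dld by −0.42 and Ppm1k by 0.64, the last lost in 7 of 26 alternatives. That of CompA differed for Aldh6a1 by 0.98 and Dld by −0.44. Of the 22 genes these were 3 higher and 1 lower for XCT790, and 1 and 1 for CompA. Over all tested genes such differences were called for 33.7% with stimulation, 24.7% with XCT790 and 21.6% with CompA. With the unstimulated share of the stimulated WT libraries subtracted, 5 of the 22 genes were called higher for stimulation, among them 4 of the 7 named here, Echs1, Hsd17b10, Acat1 and Pccb, and edgeR called 0 for the effect of either inhibitor, with 0 for XCT790 and 1 for CompA at an unadjusted p under 0.05.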

How the results depend on the processing

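Scaling moved the median of all genes by over 0.1 in stimulation contrasts, by −0.22 in WT and −0.26 in KO-labelled cells with upper-quartile factors and by −0.33 in KO-labelled cells with library totals, and by 0.21 for unstimulated KO-labelled against WT cells with library totals. The share of called genes that were higher went with it: 36.4% beside 47.1% (WT stimulation, upper-quartile), 37.5% beside 48.1% (KO-labelled stimulation, library totals), 71.7% beside 34.6% (unstimulated KO-labelled against WT, library totals), 41.3% beside 29% (stimulated KO-labelled against WT, RLE factors), 16.9% beside 29.4% (XCT790 in WT, library totals) and 41.5% beside 55% (XCT790 in KO-labelled, RLE). Bcat1 on stimulation of KO-labelled cells was 5.59 with upper-quartile factors and 5.51 with library totals, and unstimulated KO-labelled against WT 1.40 with library totals. Among the 22 later genes, upper-quartile factors gave 3 higher and 14 lower on WT stimulation and 8 lower on KO-labelled stimulation; library totals gave 9 lower on KO-labelled stimulation, 6 lower for unstimulated KO-labelled against WT, 4 higher with XCT790 in KO-labelled and 2 lower with CompA in WT cells. Pcca and Vars2 on KO-labelled stimulation turned to −0.00442 and −0.0111 with upper-quartile factors and to −0.0789 and −0.0829 with library totals. With XCT790 in WT, RLE factors and DESeq2 each gave 4 higher and the unfiltered fit 0 lower; unfiltered, CompA in KO-labelled cells gave 1 lower. Fitting only the groups compared gave 9 lower for unstimulated KO-labelled against WT, 1 lower with XCT790 in WT, 1 higher and 0 lower with XCT790 in KO-labelled, and 2 higher and 1 lower with CompA in KO-labelled cells. The cause of these moves was not tested.

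With the replicate block, the count of later genes called higher with XCT790 was 4 in KO-labelled and 1 in WT cells, that called lower with CompA in WT was 2, that called higher with XCT790 against CompA in KO-labelled cells was 2 beside 0, and Bcat1 on stimulation was 5.84 in KO-labelled and 6.89 in WT cells. Of the differences between genotypes, 11 were called higher for stimulation, 2 lower for XCT790 and 3 lower for CompA. The main edgeR fit gave 7, 1 and 1, and limma-voom without the block 6, 1 and 1. Contrasts within a genotype were blocked in an edgeR fit of its libraries alone, and those between genotypes in limma-voom. The set of libraries or the tool thus changed along with the block.

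With the unstimulated share subtracted, Bcat1 was 7.32 on WT stimulation, −0.30 for stimulated KO-labelled against WT, −0.36 with XCT790 and −0.78 with CompA in WT cells. Lower calls among the 22 were then 0 for stimulated KO-labelled against WT, 0 with XCT790 and 2 with CompA in WT. Values that turned were Ppm1k at 0.0684 for stimulated KO-labelled against WT, Aldh6a1 0.43, Slc7a8 1.10, Gpt 0.72 and Got2 −0.0852 with XCT790 in WT, Slc7a8 0.38 and Slc43a2 0.57 with CompA in WT, and the genotype difference of Aldh6a1 on stimulation at 0.0484.

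Leaving out 1 library at a time, or replicate 2 of every KO-labelled group, gave 6 to 16 lower for unstimulated KO-labelled against WT, 1 to 4 higher and 0 to 2 lower with XCT790 in WT, 0 to 2 lower with CompA in WT and 1 to 2 lower with CompA in KO-labelled cells. Bcat1 kept its sign in every alternative except stimulated KO-labelled against WT and XCT790 in WT, as given above. Bcat1 counts of 28 to 110 reads in the unstimulated libraries limit the precision of its folds.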
